A study of Mus musculus with 4 samples.

Results

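The NF-kappaB system is described here through 10 genes in endothelial cells (ECs) of mouse dura mater and brain. They were picked from the tables by gene symbol, and each was found on a single line of the 23282 entries of every count table. Among them are the 5 subunits (Rela, Rel, Relb, Nfkb1 and Nfkb2), the inhibitors of the IkappaB group (Nfkbia, Nfkbib, Nfkbie and Nfkbiz) and the deubiquitinase gene Tnfaip3. The comparison asks which transcripts differ between ECs of the dura mater, the outer meningeal membrane under the skull, and ECs of the brain parenchyma. Brain ECs (2 libraries) and dura mater ECs (2 libraries) were from C57BL/6J mice at 8 weeks of age, with no transgene or treatment named in the labels for either group. Cells were sorted as CD31 positive and CD45 and TER-119 negative after enzymatic digestion, and only the brain ECs passed a preceding magnetic enrichment. Whether the libraries of a tissue came from separate mice is not given, so p-values measure only the spread between these libraries. The magnetic step and the tissue cannot be told apart.

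NF-kappaB dimers are held in the cytoplasm of resting cells by IkappaB proteins. Receptors for TNF, interleukin-1 and microbial products activate the IkappaB kinase complex, IkappaB is degraded, and the dimers enter the nucleus, where they switch on adhesion molecules, chemokines and the genes of their own inhibitors. Processing of the Nfkb2 product to p52, which pairs with RelB, forms the separate non-canonical arm. In endothelium the system is best known for the adhesion molecules that capture leukocytes, and its messenger RNAs respond to cytokines and to handling of the tissue.

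Several members are themselves NF-kappaB targets, so the DNA before their RefSeq starts is shown first. RefSeq windows of 250 bases before the transcription start (GRCm38.p6) were at hand for 7 of the 10 members, with 3 starts for Nfkb2 and 2 for Tnfaip3. Nfkb1, Relb and Nfkbiz were not among them. The kappaB consensus, the sequence that NF-kappaB dimers bind, was searched on both strands, and overlapping matches were joined into 1 site. It matched in 5 of these 7 members (Nfkb2, Rel, Nfkbia, Nfkbie and Tnfaip3), against 780 of 7142 tested genes with a window (10.9%) and 7.25% of all 32851 windows of this length. No match was present in the windows of Rela and Nfkbib. The other starts of Nfkb2 each had 1 match of their own, and that of Tnfaip3 none. The sites before the first listed start of each gene are given on the gene's own strand with the matched bases in capitals, to show how they differ between members.
Nfkbia, chr12:55492657-55492686, minus strand, site beginning 29 bases before the start: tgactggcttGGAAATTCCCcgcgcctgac
Nfkb2, chr19:46304688-46304717, plus strand, site beginning 39 bases before the start: ggatcgtcacGGGAATTCCCCccctcgggg
Nfkb2, chr19:46304716-46304736, plus strand, site beginning 11 bases before the start: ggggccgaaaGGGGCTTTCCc
Tnfaip3, chr10:19015411-19015432, minus strand, site beginning 12 bases before the start: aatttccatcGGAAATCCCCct
Tnfaip3, chr10:19015516-19015545, minus strand, site beginning 125 bases before the start: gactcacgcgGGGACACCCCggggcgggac
Rel, chr11:23771042-23771071, minus strand, site beginning 92 bases before the start: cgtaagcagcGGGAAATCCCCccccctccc
Nfkbie, chr17:45555584-45555613, plus strand, site beginning 106 bases before the start: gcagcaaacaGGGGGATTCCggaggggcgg

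For Nfkbia, whose RNA gave most of the family's counts, the 150 bases before the start (chr12:55492648-55492797, minus strand) hold the single match near their 3′ end. They read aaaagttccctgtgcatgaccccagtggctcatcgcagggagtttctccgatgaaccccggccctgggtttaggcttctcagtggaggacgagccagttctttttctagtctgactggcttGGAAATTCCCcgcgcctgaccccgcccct. In GENCODE M21 both Nfkb2 excerpts are exonic throughout (30 of 30 and 21 of 21 bases), since that annotation starts the gene further upstream. Both Tnfaip3 excerpts lie within the annotated gene with 0 exonic bases, and those of Nfkbia, Rel and Nfkbie lie outside the genes. A match is a description of the letters only, and occupancy was not measured. The map of matches places 4 sites of the first listed starts within 40 bases of the start, in Nfkbia, Nfkb2 and Tnfaip3.

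**Figure D1:**
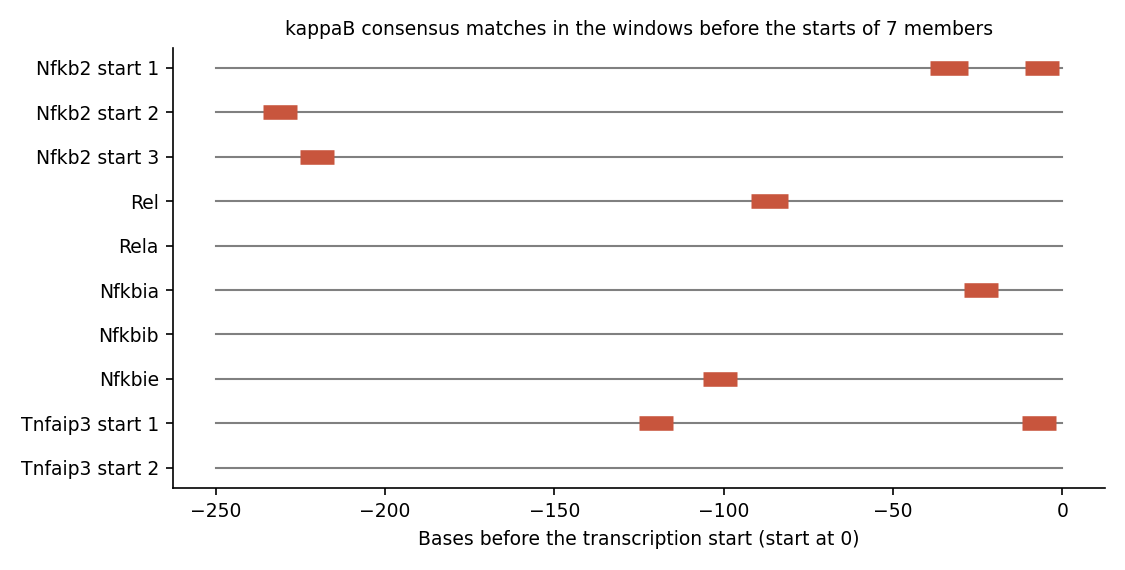
Matches to the kappaB consensus (red blocks) in the 250 bases before the transcription starts of 7 members, with the distance from the start in bases on the horizontal axis and 1 line per listed start. Rela, Nfkbib and the second start of Tnfaip3 have no match, and the site of Nfkbia begins 29 bases before its start.

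The libraries held 13518973 to 16096203 counts, and 3 counts corresponded to 0.184 to 0.227 CPM (counts over the library size, scaled by TMM). All 10 endothelial markers had at least 10 counts in every library, with a summed level of 9908 and 12450 CPM in brain ECs, against 8577 and 10929 CPM in dura mater ECs. Replicates often differed widely: of entries with at least 64 counts in either brain library, 31.3% had 7 or fewer in the other, and the share was 30.7% for the dura mater. Among the members this occurred for Relb in the brain and Nfkb1 in the dura mater. In the edgeR quasi-likelihood test, 57 of 9347 genes tested (0.610%) passed an adjusted p under 0.05, 40 of them higher in dura mater ECs (0.428%).

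Of the 10 members, 7 passed the filter on low counts and 1 of them, Nfkbiz, differed between the tissues (edgeR adjusted p 0.0461, against 0.610% of all genes tested). It was about 24 times as abundant in dura mater ECs by the ratio of mean CPM (23.8). In bulk libraries fewer cells of a type and less RNA per cell cannot be told apart. Tnfaip3 was counted in both dura mater libraries and nearly absent from both brain libraries without passing the test. The RNAs of the main inhibitor Nfkbia and of the subunits Rela, Relb and Nfkb2 were present in both tissues with ranges that overlapped. Rel and Nfkbie had 6 counts or fewer in every library, and Nfkb1 had more than 5 in dura mater replicate 2 alone. Groups did not overlap for 2 tested members, Nfkbiz and Tnfaip3, both higher in dura mater ECs, where 43.1% of all genes tested did not overlap in either direction and 26.2% did so in this one. The plot of levels by library shows these patterns.

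**Figure D2:**
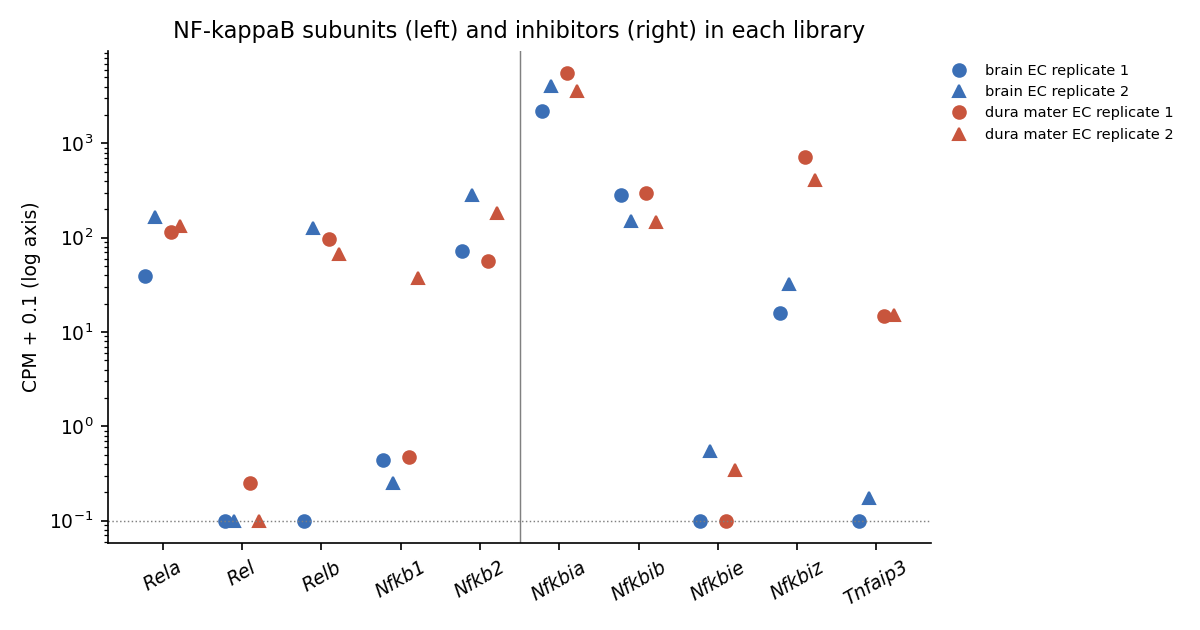
CPM + 0.1 on a log axis for the 10 members in each library, with brain ECs in blue, dura mater ECs in red, replicate 1 as circles and replicate 2 as triangles. The dotted line marks 0 counts. Nfkbiz lies at 15.7 and 31.9 CPM in brain ECs, against 718 and 414 CPM in dura mater ECs, whereas the points of Nfkbia, Nfkbib and Nfkb2 from the 2 tissues are mixed.

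Among the activating subunits, Rela encodes p65, the partner of p50 in the classical dimer. Rela (chromosome 19, 5637483 to 5648130, plus strand, GRCm38) was at 38.8 and 164 CPM in brain ECs, against 114 and 132 CPM in dura mater ECs. The dura mater values lay between those of the brain libraries. The means were 102 ± 88.8 and 123 ± 12.5 CPM (SD, n = 2), and the estimated log2 fold change was 0.27, with an SE of 0.87 and an edgeR adjusted p of 1.00. The brain libraries differed 4.23-fold from each other and the dura mater libraries 1.15-fold. The sign of the estimate turned to −0.47 without brain replicate 1.

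Relb encodes the subunit that pairs with p52 in the non-canonical arm. Relb (chromosome 7, 19606217 to 19629438, minus strand) had 0 and 1664 counts in brain ECs, against 1302 and 1102 counts in dura mater ECs. In CPM brain ECs gave 0 and 126, dura mater ECs 97.1 and 67.5, so that brain ECs supplied both the lowest and the highest library. The log2 fold change was 0.39 (SE 2.36), with an edgeR adjusted p of 1.00, and thus carried a standard error several times its size. Without brain replicate 2 it became 9.24 (edgeR adjusted p 0.000266), since the remaining brain library had 0 counts, and without brain replicate 1 it was −0.65.

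Rel, which encodes c-Rel, a subunit mainly studied in lymphocytes, was not counted in the brain libraries and had 2 and 0 counts in those of the dura mater. Nothing above the floor of 3 counts per library was seen in either tissue. Rel (chromosome 11, 23736847 to 23770970, minus strand) was not tested.

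The precursor genes Nfkb1 and Nfkb2 encode p105 and p100, whose ankyrin repeats act as built-in inhibitors until they are removed to give p50 and p52. Nfkb1 (chromosome 3, 135584655 to 135691547, minus strand) had 5 and 2 counts in brain ECs, against 5 and 612 counts in dura mater ECs. The single high library, dura mater replicate 2, was 37.5 CPM and its replicate 0.373 CPM. Nfkb1 did not pass the filter on low counts, so its mean of 18.9 ± 26.2 CPM in dura mater ECs (n = 2) rests on that library. In DESeq2, which keeps such genes, it had an adjusted p of 0.173.

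Nfkb2 (chromosome 19, 46304320 to 46312385, plus strand) lay at 72.7 and 282 CPM in brain ECs, against 55.9 and 184 CPM in dura mater ECs. Each tissue had a low replicate 1 and a higher replicate 2, and the ranges overlapped. The log2 fold change was −0.56 (SE 0.90, edgeR adjusted p 1.00), and it became 0.64 without brain replicate 2. Exons of the antisense genes Psd and AC114539.1 overlap those of Nfkb2, and antisense exons cover 59.8% of its last 500 exonic bases. That is the part that 3′ end libraries read, and whether strand was used in counting is unknown. Which of the antisense genes lies there was not resolved. Reads from the shared bases cannot then be assigned to Nfkb2 alone.

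Nfkbia encodes IkappaB-alpha, the inhibitor that is degraded and resynthesized in each round of activation. Nfkbia (chromosome 12, 55489410 to 55492647, minus strand) was at 2185 and 4105 CPM in brain ECs, against 5553 and 3606 CPM in dura mater ECs. Brain replicate 2 was above dura mater replicate 2, so the groups overlapped. Mean levels were 3145 ± 1358 and 4579 ± 1376 CPM (n = 2), and the log2 fold change was 0.54 (SE 0.39, edgeR adjusted p 0.818). The estimate ranged from 0.05 to 1.01 over 14 alternatives, positive in each and passing the threshold in 0 of them. Of all counts assigned to the 10 members, Nfkbia held 84.1% and 84.5% in brain ECs, against 81.1% and 78.3% in dura mater ECs. These are shares of 3′ reads, not of transcripts. The whole family took 0.260% and 0.465% of a brain library's counts and 0.679% and 0.467% of a dura mater library's.

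Nfkbib encodes IkappaB-beta, which is degraded more slowly and is not strongly induced by NF-kappaB. Nfkbib (chromosome 7, 28758251 to 28767512, minus strand) was at 285 and 148 CPM in brain ECs, against 296 and 147 CPM in dura mater ECs. The tissues gave nearly the same pair of values, and within each the replicates were about as far apart (1.92-fold and 2.01-fold). Its log2 fold change was 0.03 (SE 0.59, edgeR adjusted p 1.00) and changed sign in 6 of 14 alternatives, so no direction is given. Exons of Ccer2 and Sirt2 on the other strand overlap its exons, and antisense exons cover 19.2% of its last 500 exonic bases. Which of these genes lies in that part was not resolved.

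Nfkbie, which encodes IkappaB-epsilon, had 0 and 6 counts in brain ECs, against 0 and 4 in dura mater ECs. Its highest library reached 0.454 CPM, and Nfkbie (chromosome 17, 45555703 to 45563169, plus strand) was not tested.

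Nfkbiz encodes IkappaB-zeta, an atypical nuclear IkappaB protein that is induced by interleukin-1 and Toll-like receptor signals and acts with p50 on secondary response genes. Nfkbiz (chromosome 16, 55811375 to 55838899, minus strand) had 228 and 422 counts in brain ECs, against 9633 and 6756 counts in dura mater ECs. In CPM these were 15.7 and 31.9 for brain ECs and 718 and 414 for dura mater ECs. Both dura mater libraries were above both brain libraries, and the gap between tissues exceeded the 2.03-fold and 1.74-fold differences between replicates. The means were 23.8 ± 11.4 and 566 ± 215 CPM (n = 2), and the log2 fold change was 4.56 (SE 0.63, edgeR adjusted p 0.0461). By p-value Nfkbiz ranked 57 among the 57 genes that passed, so it stood at the edge of the threshold, and no annotated gene overlaps its exons. It passed in 11 of 14 alternatives, with DESeq2 giving an adjusted p of 5.9e-09 and the replicate block 0.000134 in edgeR. Of these 11, the prior count of 0.5 changes only the fold change, so its adjusted p was that of the main fit. At an adjusted p under 0.01, which is not among the 14, Nfkbiz did not pass in the main fit. It missed with RLE scaling (edgeR adjusted p 0.0548), in limma-voom (adjusted p 0.151) and without dura mater replicate 1 (edgeR adjusted p 0.106), while its log2 fold change stayed between 3.97 and 5.11.

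Tnfaip3 encodes A20, the ubiquitin-editing enzyme that ends signalling from the TNF receptor. Tnfaip3 (chromosome 10, 19000910 to 19015657, minus strand) had 0 and 1 counts in brain ECs, against 199 and 244 counts in dura mater ECs. The dura mater libraries agreed closely, at 14.8 and 14.9 CPM, and did not overlap with the brain libraries. Over the pooled libraries the ratio of dura mater to brain ECs was 413, with an exact 95% interval of 73.7 to 16350 that covers counting error only. The log2 fold change was 6.41 (SE 2.96, edgeR adjusted p 0.492), and 0 of 13 alternatives passed, with the lowest adjusted p, 0.0583, in DESeq2. The plot of edgeR estimates shows this wide error beside the narrower error of Nfkbiz.

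**Figure D3:**
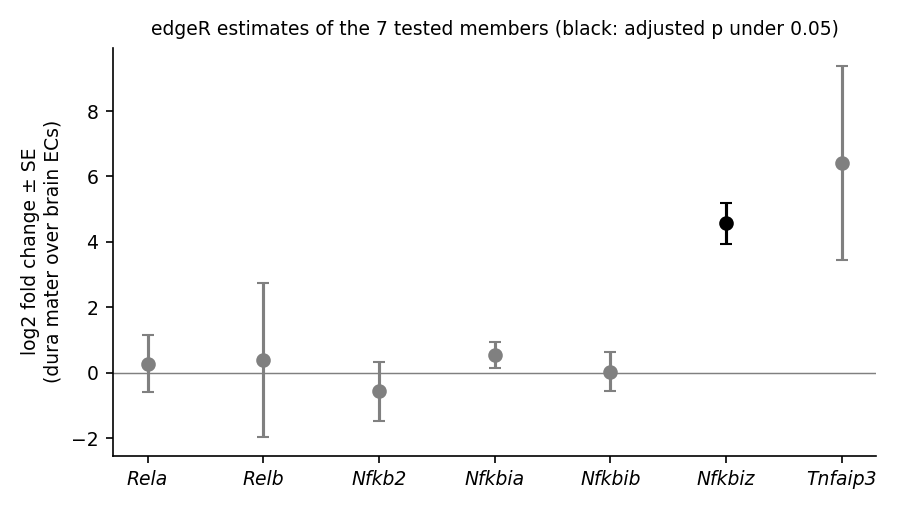
Log2 fold change of dura mater over brain ECs with its standard error for the 7 members that were tested in edgeR (2 libraries per tissue). Nfkbiz, in black, at 4.56 (SE 0.63), is the member with an adjusted p under 0.05, whereas Tnfaip3 at 6.41 has an SE of 2.96.

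The estimates of the remaining members depended on single libraries. Leaving out a library moved Relb between −0.65 and 9.24, Nfkb2 between −1.68 and 0.64 and Rela between −0.47 and 1.59. For Nfkbiz and Tnfaip3 the same ranges were 3.97 to 5.11 and 6.10 to 6.77, all positive. The plot of alternatives sets these ranges side by side.

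**Figure D4:**
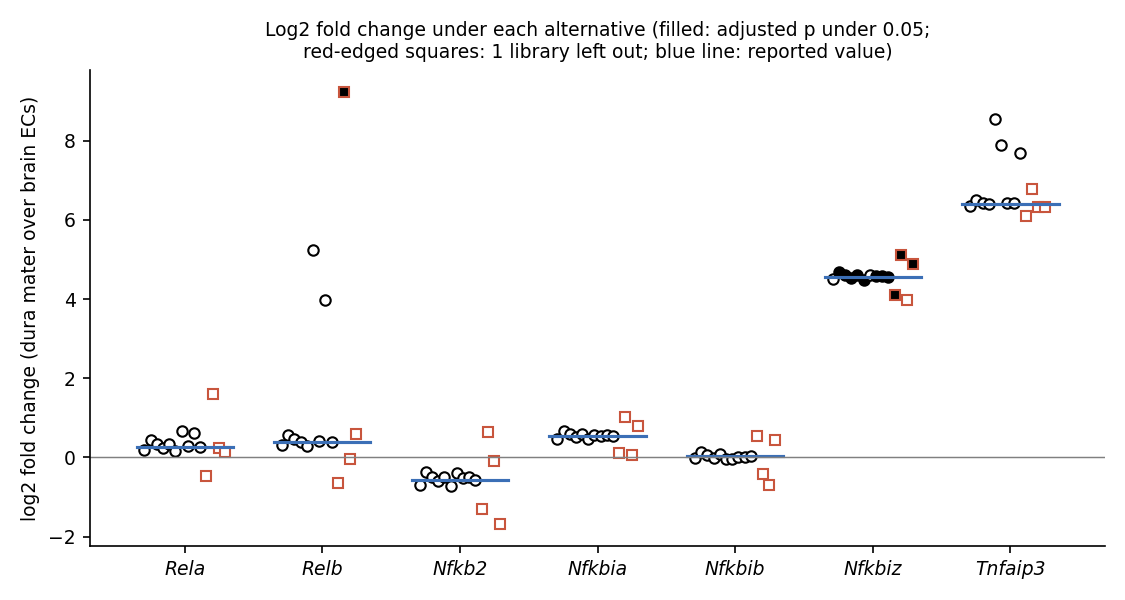
Log2 fold change of dura mater over brain ECs for the 7 tested members under each alternative, with circles for other scalings, filters and tests and red-edged squares for fits without 1 library. Filled symbols have an adjusted p under 0.05, and the blue line is the reported value. Nfkbiz keeps to 3.97 to 5.11, whereas Relb reaches 9.24 without brain replicate 2.

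Upstream of the members, the list of canonical kinases and adaptors had 16 of 18 genes tested, and 0 passed in edgeR (1 at an unadjusted p under 0.05, higher in dura mater ECs, where the backgrounds are 7.04% higher and 2.97% lower). In DESeq2, where 12.3% of genes passed and 8.67% were higher, 1 of them, Irak4, was higher. The list's median log2 fold change was 0.32, against −0.01 over all genes tested, and ranged from −0.09 (without dura mater replicate 2) to 0.83 (without brain replicate 1) over 14 alternatives. Irak4, a kinase of the interleukin-1 and Toll-like receptor complexes, was not counted in the brain libraries and reached 47.6 and 23.5 CPM in dura mater ECs. Against a floor of 3 counts per brain library this was at least 164-fold higher (counting error only), with an edgeR adjusted p of 0.466. Exons of Twf1 on the other strand cover 14.2% of its last 500 exonic bases. Tab1, an adaptor of the kinase TAK1, was at 1.24 and 20.3 CPM in brain ECs, against 0 and 0.245 CPM in dura mater ECs, with an edgeR adjusted p of 0.692. The IkappaB kinase gene Ikbkb was at 53.3 and 273 CPM against 123 and 49.5 CPM and is named after its values were seen, as no kinase subunit fell under the naming rule.

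In the non-canonical list 7 of 9 genes were tested and 0 passed in edgeR (1 at an unadjusted p under 0.05, 2 in DESeq2). Its median was −0.32, and it turned to 1.64 with the replicate block and 2.00 in limma-voom. It also turned to 1.15 without brain replicate 1, 1.08 without brain replicate 2 and 0.51 without dura mater replicate 2, so no direction is given for the list. Traf3, the adaptor that keeps the arm switched off, was at 0.138 and 0.0756 CPM in brain ECs, against 56.7 and 39.0 CPM in dura mater ECs, a pooled ratio of 434 (exact 95% interval 148 to 2108, counting error only, edgeR adjusted p 0.429). Birc3, a ubiquitin ligase of the TRAF complexes and itself an NF-kappaB target, was at 0 and 0.0756 CPM against 21.1 and 23.9 CPM (edgeR adjusted p 0.466). The naming rule took only genes whose groups did not overlap, and both passed in DESeq2 (adjusted p 3.6e-05 and 0.0125).

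Receptors of the canonical arm were tested for 6 of 11 genes, and 0 passed in edgeR (2 at an unadjusted p under 0.05, 2 in DESeq2), with a median of 1.87 that became 4.42 without brain replicate 2 and 3.11 in limma-voom. Tlr2, a receptor for bacterial lipoproteins, was at 0 and 0.0756 CPM in brain ECs, against 62.3 and 5.08 CPM in dura mater ECs (edgeR adjusted p 0.466). Ager, the receptor for advanced glycation end products, was not counted in the brain libraries and reached 8.72 and 15.1 CPM in dura mater ECs. Against a floor of 3 counts per brain library this was at least 54.9-fold higher (counting error only), with an edgeR adjusted p of 0.466. Tnfrsf1a, the main TNF receptor and named after its values were seen, was at 110 and 202 CPM against 553 and 663 CPM, with no overlap. Its log2 fold change was 1.96 (SE 0.46, edgeR adjusted p 0.233). With the replicate block Tnfrsf1a was the 1 gene of this list that passed (edgeR adjusted p 0.0240). It also passed in DESeq2 (adjusted p 0.0109) and in edgeR without a low-count filter (adjusted p 0.0169). The same held with at least 10 counts in every library and with the newer dispersion estimate (edgeR adjusted p 0.0412 and 0.0131). It did not pass with the other scalings or in limma-voom. Il1r1, an interleukin-1 receptor gene also named after its values were seen, was lower in dura mater ECs without overlap. It was at 110 and 133 CPM in brain ECs, against 14.3 and 32.6 CPM in dura mater ECs (edgeR adjusted p 0.470). Of the tested receptors, 4 were higher and 1 lower without overlap, against 26.2% and 16.9% of all genes tested.

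Of the 10 ligands only Tnfsf12, which encodes TWEAK, had counts enough for the test, at 42.9 and 93.1 CPM in brain ECs, against 139 and 119 CPM in dura mater ECs (log2 fold change 0.92, edgeR adjusted p 0.932). The ligands list had 0 genes at an unadjusted p under 0.05 and 0 in DESeq2. Tnfsf12 shares 48.3% of its exon length with the read-through gene Tnfsfm13, but 0% of its last 500 exonic bases with any gene. Tnf had 0, 0, 1 and 0 counts in brain replicates 1 and 2 and dura mater replicates 1 and 2, and Il1b had 3, 4, 2 and 1. These ligands were at or near the floor in both tissues and are named after their values were seen.

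Of the other inhibitors and nuclear IkappaB proteins, 12 of 15 were tested and 0 passed in edgeR (2 at an unadjusted p under 0.05, 2 in DESeq2), with a median of −0.26 that turned to 1.29 with the replicate block and 1.56 in limma-voom. It was 1.73 without brain replicate 1, 0.09 without brain replicate 2, 0.16 without dura mater replicate 2 and 0.75 with at least 10 counts in every library, so no direction is given for this list either. Nfkbid, which encodes the atypical protein IkappaB-NS, was not counted in the brain libraries and reached 131 and 31.9 CPM in dura mater ECs. This was at least 376-fold higher, and the edgeR adjusted p was 0.245 against 6.1e-07 in DESeq2. Cyld, a deubiquitinase that acts on the same chains as A20, was at 0.0690 and 0.0756 CPM in brain ECs, against 17.7 and 51.5 CPM in dura mater ECs, with an edgeR adjusted p of 0.466. As in the other lists with no gene that passed, the naming rule required groups without overlap.

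Of the endothelial and inflammatory targets, 20 of 28 genes were tested, and in dura mater ECs 4 rose and 0 fell (edgeR, background 0.428% and 0.182%). In DESeq2, where 12.3% of all genes passed and 8.67% were higher, 9 targets were higher and 1 lower. The median log2 fold change of the list in edgeR was 3.42, and 18 of the 20 were positive against 49.8% of all genes tested. Over the targets that kept at least 10 counts in every library the median was 1.38. Selp, the leukocyte rolling receptor, was not counted in the brain libraries and reached 1654 and 612 CPM in dura mater ECs. Against a floor of 3 counts per brain library this was at least 5226-fold higher (counting error only), with an edgeR adjusted p of 0.0232. Icam1, the ligand of leukocyte integrins, rose from 48.8 and 66.3 CPM to 1888 and 980 CPM (log2 fold change 4.64, SE 0.50, edgeR adjusted p 0.0248). Cxcl10, an interferon-inducible chemokine, was at 0 and 0.0756 CPM against 285 and 147 CPM (edgeR adjusted p 0.0282), and Ier3, an early survival gene, rose from 767 and 1092 to 5739 and 6268 CPM (edgeR adjusted p 0.0248).

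In the last 500 exonic bases, antisense exons cover 100% of Icam1, 26.6% of Cxcl10 and 23.6% of Selp. The median log2 fold change of the targets was 3.97 without brain replicate 1 and 2.82 without brain replicate 2. With the replicate block 7 targets passed, where 224 of 9347 genes tested passed. Il6 and Csf3, chosen here after seeing their values, were not above 1 count in any brain library. In dura mater ECs Il6 was at 62.8 and 7.53 CPM and Csf3 at 97.5 and 7.23 CPM (edgeR adjusted p 0.466 and 0.416). The survival gene Bcl2l1 was on the other side, at 1246 and 893 CPM in brain ECs, against 274 and 217 CPM in dura mater ECs, with an edgeR adjusted p of 0.0966.

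**Figure D5:**
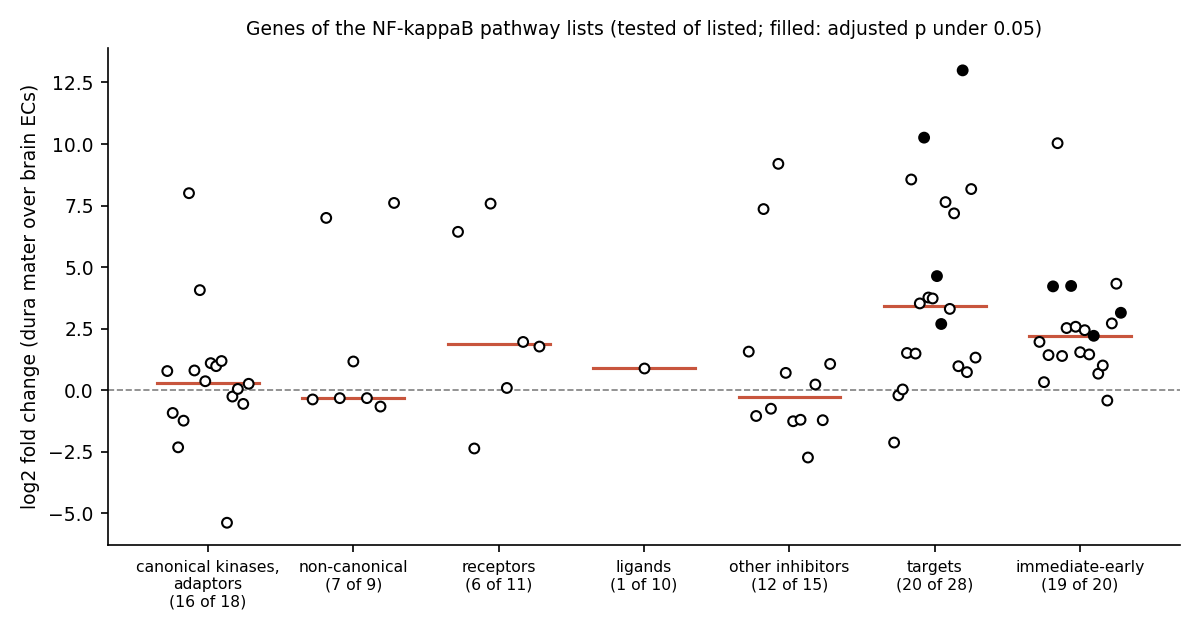
Log2 fold change of dura mater over brain ECs for each tested gene of the 7 lists, with red lines at list medians, a dashed line at the median of all genes tested (−0.01) and filled points at an adjusted p under 0.05 in edgeR. Filled points lie in the targets (median 3.42) and immediate-early lists (median 2.21), and 0 lie in the lists of kinases, receptors, ligands and inhibitors.

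Immediate-early genes, which NF-kappaB-inducing stimuli and tissue digestion both switch on, were mostly higher in dura mater ECs, as was Nfkbiz. Of 20 genes 19 were tested, and 4 were higher and 0 lower (edgeR, background 0.428% and 0.182%). The median log2 fold change was 2.21, and 18 of the 19 were positive against 49.8% of all genes tested. The summed level of the list was 7628 and 6569 CPM in brain ECs, against 31541 and 32453 CPM in dura mater ECs. The named members were the transcription factor genes Egr1, Fosb and Junb, and Zfp36, whose product destabilizes cytokine RNAs, with log2 fold changes of 4.22, 4.24, 2.21 and 3.15 (edgeR adjusted p 0.0248 to 0.0309). Antisense exons cover 34.6% of the last 500 exonic bases of Junb. With the replicate block 12 genes of the list passed, where 224 of 9347 genes tested passed. The list's median ranged from 2.02 to 2.42 over 14 alternatives. The part of tissue handling in the level of Nfkbiz was not tested.

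Markers of other cell types were read beside the members, as the sort could still hold such cells. The leukocyte list, cells rich in NF-kappaB RNAs, summed to 147 and 115 CPM in brain ECs, against 84.1 and 50.2 CPM in dura mater ECs. Single genes in single brain libraries carried much of these sums, with 1377 counts of Laptm5 in replicate 1 and 797 counts of C1qc and 646 of Csf1r in replicate 2. Cd68, a macrophage marker, was higher in dura mater ECs, as was Nfkbiz, at 0.276 and 0.227 CPM in brain ECs, against 41.0 and 27.0 CPM. Ptprc, which encodes the sorted-out CD45, had 1, 3, 4 and 3 counts in brain replicates 1 and 2 and dura mater replicates 1 and 2, and Cd3e, Ms4a1 and Nkg7 had 0 throughout. Of the 16 leukocyte markers, 7 were tested. Over all 16, 1 (Cd68) was higher and 1 (C1qb) lower in dura mater ECs without overlap. C1qb had 289 and 4 counts in brain ECs, against 2 and 0 in dura mater ECs, so its separation rests on counts near the floor. Over all genes tested, 26.2% were higher and 16.9% lower without overlap. The marker lists were counted over all their genes, tested or not, so these shares are not a like background. Fibroblast markers summed to 7.38 and 50.7 CPM in brain ECs, against 337 and 354 CPM in dura mater ECs. Of the 6 genes in that list 4 were higher without overlap, Dcn and the collagen genes Col1a1, Col1a2 and Col3a1. The fibroblast markers Pdgfra, with 1, 1, 0 and 1 counts, and Lum, with 3, 3, 4 and 0, were at or near the floor in both tissues. Lymphatic endothelial markers summed to 123 and 145 against 348 and 572 CPM, with Prox1 and Lyve1 at 0 in both brain libraries. Mural markers summed to 567 and 1041 against 939 and 507 CPM, and neuronal and glial markers to 103 and 0.756 against 152 and 15.3 CPM, with overlap between the tissues in both sums. The mural genes Kcnj8, at 0 in both brain libraries, against 34.9 and 25.1 CPM, and Cspg4, at 0 and 0.0756, against 19.6 and 3.98 CPM, were higher in dura mater ECs without overlap. The part of Cd68 and of the fibroblast, lymphatic and mural genes named here in the levels of Nfkbiz and Tnfaip3 was not tested. Erythroid markers were lower in dura mater ECs, with 3 of 5 genes passing in edgeR (background 0.182%). They summed to 18013 and 25692 CPM in brain ECs, against 1496 and 762 CPM in dura mater ECs. In each brain library this sum was above that of the endothelial markers (9908 and 12450 CPM).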

How the data were processed

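RNA of sorted ECs was sequenced with a QuantSeq kit, which reads 3′ ends. The authors deposited raw counts per gene symbol for each of the 4 libraries. The methods name TopHat for mapping and cufflinks for transcript abundances and differential expression, and the submitters' processing notes name Bowtie2, edgeR and mm10. Which tool made the deposited counts, the annotation and the use of strand are not given in the sources used here. The members and gene lists were chosen with earlier results of these data known.

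Counts were tested with the quasi-likelihood test of edgeR 4.0.16 (R 4.3.3) after filterByExpr and TMM (trimmed mean of M-values) normalization. The model held tissue alone, and p-values were adjusted by Benjamini-Hochberg across the 9347 genes tested. Log2 fold changes used a prior count of 2, and SE is their size divided by the square root of F. DESeq2 1.42.0 (own filter, all entries) and limma-voom (limma 3.58.1) were alternatives, with other scalings, filters, a replicate block and each library left out. The scripts were tested on simulated data. With 2 libraries against 2, an exact permutation test cannot go below 0.333. From each list at most 6 genes passing edgeR were named, or otherwise the 2 with the largest change, no overlap and at least 10 CPM in the higher group. Folds against 0 counts in both libraries were set against 3 counts per library, and intervals and floors cover counting error only. Positions are from GENCODE M21 (GRCm38), and 35 symbols stood on more than 1 line, none of them a member.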

Additional observations from a re-analysis of the deposited data

How the results depend on the processing

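Counts of genes passing were 57 over all genes, 1 among the members, 4 among targets and 4 among immediate-early genes in edgeR. The replicate block gave 224, 1, 7 and 12, and 1 receptor. The block follows the replicate numbers of the titles, and the deviations of same-numbered libraries had a correlation of −0.0171. As replicates often differed widely, this value cannot decide whether same-numbered libraries were paired, which is not given. Without a low-count filter the numbers were 326, 1, 7 and 12, with 1 receptor and 1 other inhibitor, and with 10 counts in every library 141, 1, 4 and 11, with 1 receptor. DESeq2 gave 1259, 1, 10 and 12, with 1 kinase or adaptor, 2 non-canonical genes, 2 receptors and 2 other inhibitors. The newer edgeR dispersion estimate gave 306, 1, 9 and 12, with 1 receptor, and limma-voom 80, 0, 4 and 9. RLE scaling left 0 members, and an adjusted p of 0.01 left 1 gene and 0 members. Leaving out each library gave 80 to 740 genes, 0 to 2 members, 4 to 11 targets, 5 to 12 immediate-early genes, and 0 to 1 kinases or adaptors, receptors and other inhibitors.

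The log2 fold change of Nfkbib was −0.0233 with RLE, −0.00791 without a filter, −0.0444 in DESeq2 and −0.0367 in limma-voom. Leaving out libraries moved it from −0.70 to 0.54, Nfkb2 from −1.68 to 0.64, Rela from −0.47 to 1.59 and Relb from −0.65 to 9.24. Nfkbia, Nfkbiz and Tnfaip3 stayed positive in every alternative run. The median change of log2 fold changes per gene was 0.14 with upper-quartile scaling, 0.11 in limma-voom, −0.11 in DESeq2 and −0.11 without dura mater replicate 2, and single genes moved either way. In fits without a library, the lone library of a tissue was assumed to vary like those of the other tissue. The cause of these changes was not tested, apart from Relb, whose remaining brain library then held 0 counts.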
